A study of Mus musculus with 16 samples.

Results

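The genes described here encode the subunits, regulators and assembly chaperones of the proteasome, the protease complex that degrades ubiquitin-tagged proteins. They were chosen by name: every gene whose symbol starts with Psma, Psmb, Psmc, Psmd, Psme, Psmf or Psmg and that has a probeset carrying that symbol alone, pseudogenes left out. This gave 48 of the 30142 genes measured. RNA from glomerular extracts of kidney cortex was hybridised to 16 arrays, each from a different female mouse, with 2 mice in each of 8 groups. The knockout mice were B6.ER⍺KO, which lack oestrogen receptor alpha, and the wild type mice were C57Bl/6. In each genotype, mice were untreated or were given nephrotoxic serum from sheep intraperitoneally at 8 ul per g, which starts an antibody-mediated glomerulonephritis, and their kidneys were harvested at 18 hours, 6 days or 2 weeks. The labels give no litter and no comparator injection for the untreated mice. The labels name no promoter or Cre for the knockout, so the comparison of genotypes does not locate an effect to a cell type.

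The proteasome is built from a barrel, the 20S core particle, and a cap, the 19S regulatory particle. Alpha subunits form the outer rings of the barrel and beta subunits the inner rings, which hold the cutting sites. ATPase subunits of the cap unfold substrates, and non-ATPase subunits recognise ubiquitin and remove it. In cells exposed to interferon gamma, the catalytic beta subunits Psmb6, Psmb7 and Psmb5 are replaced in new particles by Psmb9, Psmb10 and Psmb8, which gives the immunoproteasome. Psme1 and Psme2 form an activator that is induced by the same cytokine. Immunoproteasomes are abundant in leukocytes and favour the cutting of peptides that MHC class I molecules present to T cells.

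Of the 48 genes, 8 encode alpha subunits, 6 constitutive beta subunits, 6 cap ATPases, 11 cap non-ATPases, 7 chaperones of assembly, and 4 the activators and the inhibitor Psmf1. A further 4 encode inducible or tissue-specific beta subunits, Psmb8, Psmb9, Psmb10 and the thymic Psmb11. The last 2, Psmc3ip and Psme3ip1, share a prefix but are named as interaction partners and are not subunits. The probesets of Psmb5 and Psme2 list several symbols, so these genes are not analysed here and no conclusion on them can be drawn. The inducible set below is therefore Psmb8, Psmb9, Psmb10 and Psme1, and the core set is 30 constitutive subunits of the barrel and the cap (Psma8, of the testis, is left out of it).

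Promoter windows of the 4 inducible genes, and of Psmb6 as the constitutive counterpart of Psmb9, are shown because the cytokine named above acts on the inducible genes through motifs near their starts. Each window is 300 bases of RefSeq sequence (build GRCm38.p6), printed on the strand of the gene. It runs from 250 bases before the transcription start to 50 bases counted from it. The windows lie at chr17:34197945-34198244 on the plus strand for Psmb8 and at chr17:34187281-34187580 on the minus strand for Psmb9. That of Psmb10 lies at chr8:105938343-105938642 on the minus strand. That of Psme1 lies at chr14:55578244-55578543 and that of Psmb6 at chr11:70525107-70525406, both on the plus strand. Capitals mark a match to GAAA and GAAA with 2 bases between (the core of the interferon-stimulated response element), TTCNNNGAA (the gamma-activated site) or TGACNNNGC (the core of the antioxidant response element), searched on both strands.
Psmb8: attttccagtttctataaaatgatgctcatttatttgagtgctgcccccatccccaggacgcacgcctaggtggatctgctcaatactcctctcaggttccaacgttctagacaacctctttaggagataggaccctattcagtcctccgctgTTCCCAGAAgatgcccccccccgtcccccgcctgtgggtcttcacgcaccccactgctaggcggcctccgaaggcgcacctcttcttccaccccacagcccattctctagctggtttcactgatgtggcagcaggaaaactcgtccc
Psmb9: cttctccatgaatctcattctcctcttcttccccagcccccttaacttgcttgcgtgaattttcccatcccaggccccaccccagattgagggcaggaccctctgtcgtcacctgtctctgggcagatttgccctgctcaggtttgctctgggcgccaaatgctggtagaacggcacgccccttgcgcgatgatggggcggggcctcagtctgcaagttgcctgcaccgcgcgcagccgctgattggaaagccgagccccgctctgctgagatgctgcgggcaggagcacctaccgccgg
Psmb10: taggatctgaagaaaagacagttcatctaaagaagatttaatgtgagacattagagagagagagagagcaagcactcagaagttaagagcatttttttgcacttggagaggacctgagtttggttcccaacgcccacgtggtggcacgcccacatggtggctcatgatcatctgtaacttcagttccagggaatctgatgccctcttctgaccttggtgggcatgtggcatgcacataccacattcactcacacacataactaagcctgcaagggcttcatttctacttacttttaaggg
Psme1: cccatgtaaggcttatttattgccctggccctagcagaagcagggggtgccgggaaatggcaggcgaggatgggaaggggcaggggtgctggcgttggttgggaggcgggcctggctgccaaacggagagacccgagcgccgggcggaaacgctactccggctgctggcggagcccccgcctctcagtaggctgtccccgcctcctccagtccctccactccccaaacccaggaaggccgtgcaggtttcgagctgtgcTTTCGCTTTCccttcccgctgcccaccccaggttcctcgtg
Psmb6: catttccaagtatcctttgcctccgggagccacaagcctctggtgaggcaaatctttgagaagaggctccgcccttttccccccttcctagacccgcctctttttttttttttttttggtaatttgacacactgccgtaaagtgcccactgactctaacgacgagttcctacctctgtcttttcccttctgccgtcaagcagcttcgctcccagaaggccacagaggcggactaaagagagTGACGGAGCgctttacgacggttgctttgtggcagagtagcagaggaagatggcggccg

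The gamma-activated letters were found in Psmb8 at positions -97 to -89 from the start. The interferon-stimulated letters were found in Psme1 on the opposite strand, at bases 10 to 19 counted from the start. In Psmb6 the antioxidant letters ended at the base before the start that its window uses. The listed start of that gene, 70525324, lies upstream of these letters. Psmb9 and Psmb10 held none of the 3 motifs in these windows, which says only that the letters are not there. The window of Psmb9 shares 275 of its 300 bases with that of Tap1, a peptide transporter gene read from the opposite strand. Of the 48 genes, 40 had a window, and the motifs were found in 5 (interferon-stimulated), 3 (gamma-activated) and 5 (antioxidant) of them. Among all 32851 windows the shares with these letters were 3.44%, 8.3% and 12.4%, and the 40 genes had 12.5%, 7.5% and 12.5%. Members were counted by gene, with a match in any window, and the background by window. Psma6, Psmc2 and Psme3ip1 had 2 windows each, so the shares here and below are in unlike units. A CCAAT box, searched on both strands, was found in 16 of the 40 genes and in 37.4% of all windows. The matches among the other genes were spread over chaperones, cap subunits and barrel subunits: Psmb3, Psmd4, Psmd9 and Psmg4 held the interferon-stimulated letters, and Psmd2 and Psmg1 the gamma-activated ones.

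Podocyte, endothelial and mesangial markers were present on all arrays of these glomerular extracts, with podocyte marker means of 9.21 to 11.45. Proximal tubule marker means were 13.09 to 16.09, so tubule RNA was present too. Esr1, the gene of the deleted receptor, stood at 7.44 ± 0.18 in knockout arrays and 6.90 ± 0.35 in wild type arrays (SD, n = 8 each) and was not lower in knockout. Which part of Esr1 the probeset covers is not given in the sources used here, so this does not check the deletion. At 18 hours it was 7.64 and 7.11 in knockout replicates 1 and 2, against 6.85 and 7.53 in wild type replicates 1 and 2. In earlier results from these data, both replicate 2 arrays at 18 hours sat with the other genotype. Knockout replicate 1 at 2 weeks also stood apart from its partner. Main results that rest on these 3 arrays are also given without them. Values are in deposited log2 units of an unstated scale, so a difference of 1 is not taken as a fold of RNA. The precision is limited by 2 arrays a group.

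At 2 weeks after serum, wild type glomerular extracts had higher RNA for the inducible beta subunits Psmb8 and Psmb9, and lower RNA for 3 genes of the constitutive machinery. Psmb8 and Psmb9 rose, by 0.62 ± 0.11 and 0.66 ± 0.12 (± SE, 2 against 2 arrays), and the third inducible beta subunit, Psmb10, did not pass (0.76 ± 0.28, limma adjusted p = 0.103). Psmb8 and Psmb9 are dim, with means over all 16 arrays of 5.71 and 5.93, while the gene medians of the arrays ran from 5.92 to 6.22. Psmd3, a non-ATPase subunit of the cap, Psmb7, the constitutive counterpart of Psmb10, and Psmg1, a chaperone of the alpha ring, fell. A gene was called where its limma p, adjusted by Benjamini-Hochberg over all 30142 genes, was under 0.05. By that rule 5 of the 48 genes were called in wild type at 2 weeks, against 8.04% of all genes (4.81% higher and 3.23% lower). The count over all 48 is thus near the background, and what follows is about direction by role. Without both 18-hour replicate 2 arrays, which enter only the estimate of spread here, Psmb8, Psmb9 and Psmd3 were called.

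Psmb8, which cleaves after hydrophobic residues, stood in knockout mice at 5.46 and 5.45 untreated, 5.48 and 5.59 at 18 hours, 5.81 and 5.81 at 6 days and 5.34 and 5.65 at 2 weeks. In wild type mice it stood at 5.55 and 5.54 untreated, 5.67 and 5.50 at 18 hours, 6.16 and 6.04 at 6 days and 6.16 and 6.17 at 2 weeks. Both wild type arrays at 2 weeks lay above every knockout array, and the 2 knockout arrays at 2 weeks lay on either side of their untreated controls. The wild type difference at 2 weeks had an adjusted p of 0.0164 (limma).

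Psmb9, which takes the place of Psmb6, stood in knockout mice at 5.81 and 5.68 untreated, 5.81 and 5.71 at 18 hours, 5.85 and 5.90 at 6 days and 5.80 and 5.94 at 2 weeks. In wild type mice it stood at 5.81 and 5.81, 5.83 and 5.72, 6.33 and 6.00, and 6.53 and 6.40 at the same times. The knockout values ran from 5.68 to 5.94, and the wild type arrays at 6 days and 2 weeks were above all other arrays. The wild type difference at 2 weeks had an adjusted p of 0.0174 (limma).

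Psmb10, which takes the place of Psmb7, stood in knockout mice at 7.17 and 7.21 untreated, 7.25 and 7.48 at 18 hours, 7.82 and 8.28 at 6 days and 7.03 and 7.92 at 2 weeks. In wild type mice it stood at 7.64 and 7.54, 7.65 and 7.31, 8.47 and 8.49, and 8.66 and 8.05 at the same times. The 2-week arrays overlapped the untreated arrays in knockout and did not in wild type. The wild type difference at 2 weeks, as given above, did not pass.

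Psme1, the activator subunit, stood in knockout mice at 7.07 and 7.20 untreated, 7.14 and 7.23 at 18 hours, 7.32 and 7.53 at 6 days and 6.94 and 7.41 at 2 weeks. In wild type mice it stood at 7.38 and 7.35, 7.28 and 7.04, 7.52 and 7.59, and 7.77 and 7.74 at the same times. Its wild type difference at 2 weeks was 0.39 ± 0.16 and did not pass either (limma adjusted p = 0.123). All 4 inducible genes were thus above 0 at 2 weeks in wild type (64.6% of all genes were), with groups that did not overlap and a median difference of 0.64. Among all genes 39.1% were higher with no overlap, and the median difference was 0.13.

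**Figure D1:**
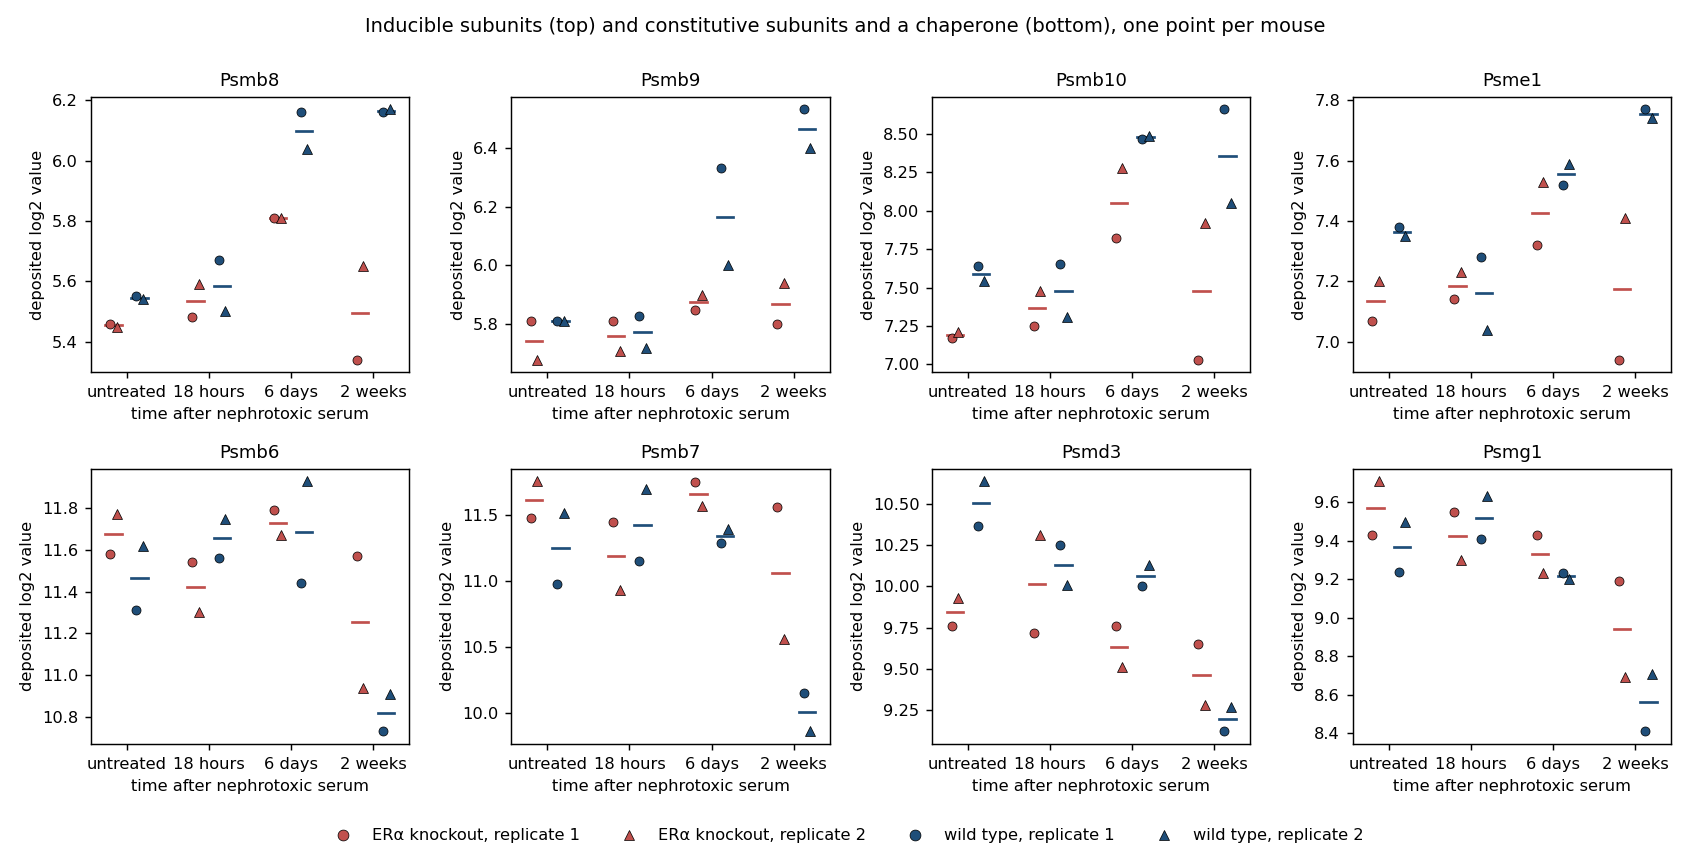
Deposited log2 value (y axis) of the 4 inducible genes (top) and of Psmb6, Psmb7, Psmd3 and Psmg1 (bottom) by time after nephrotoxic serum (x axis), with knockout left of wild type at each time. Each point is 1 mouse and each bar the mean of 2; Psmb8 lies at 6.16 and 6.17 in wild type at 2 weeks, above all knockout arrays.

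The median of all genes was itself 0.13 above 0 in wild type at 2 weeks, and relative to it Psmb8 was at 0.49 and Psmb9 at 0.53. The median of 23 probesets at background level moved by 0.01. The calls of Psmb8 and Psmb9 were lost with quantile normalization added and with only the compared groups in the fit, with adjusted p up to 0.102 and 0.0848 over 11 alternatives. They were also lost without either untreated wild type array or without wild type 2 weeks replicate 2 (adjusted p up to 0.111 for both). Under each of these settings the difference stayed above 0, at 0.40 or more for Psmb8 and 0.45 or more for Psmb9.

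Most of the constitutive core had differences of the other sign at 2 weeks in wild type. Of its 30 genes 29 had a difference below 0, with a median of -0.44, against 35.4% of all genes below 0. In 21 of the 30 the 2-week arrays lay below both untreated arrays, against 20% of all genes. Only Psmd3 and Psmb7 among the 30 passed the test, so most of these differences were not resolved singly. With quantile normalization added, 21 of the 30 were below 0 and the median was -0.15, and with arrays centred on their median all 30 were below 0 and the median was -0.65. The size of the shift therefore depends on the scaling, and the sign of its median did not. Calls over all genes split into 1450 higher and 974 lower as deposited, 623 and 591 with quantile normalization, and 566 and 2725 with centring.

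Among the constitutive beta subunits, all 6 were below 0, between -1.25 and -0.47. Psmb7 was at 10.15 and 9.86 in wild type mice at 2 weeks, against 10.98 and 11.52 in untreated ones, a difference of -1.25 ± 0.33 (limma adjusted p = 0.0449; -1.37 relative to all genes). Psmb6 was at 10.73 and 10.91 at 2 weeks, against 11.31 and 11.62 untreated, a difference of -0.64 ± 0.24 that did not pass (limma adjusted p = 0.108). In both genes neither 2-week array reached the untreated values. In knockout mice Psmb7 stood at 11.48 and 11.76 untreated, 11.45 and 10.93 at 18 hours, 11.75 and 11.57 at 6 days and 11.56 and 10.56 at 2 weeks. Psmb6 stood there at 11.58 and 11.77, 11.54 and 11.30, 11.79 and 11.67, and 11.57 and 10.94 at the same times. Replicate 2 at 2 weeks was the lowest knockout array for both genes. In wild type at 18 hours and 6 days Psmb7 was at 11.15 and 11.70, and 11.29 and 11.40, and Psmb6 at 11.56 and 11.75, and 11.44 and 11.93. The call of Psmb7 held in 3 of 16 fits that left out 1 array and in 7 of 12 other alternatives, with adjusted p up to 0.229.

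Among the alpha subunits 7 of 8 were below 0 and none was called. Psma4 had the most negative difference, -0.94 ± 0.32 (limma adjusted p = 0.0883), at 9.95 and 10.19 in wild type at 2 weeks, against 10.91 and 11.10 untreated. The testis subunit Psma8 was the exception, at 0.13, with values of 4.75 to 5.26 on all arrays. The 6 ATPases were all below 0 and none was called. They ran from Psmc5 at -0.87 ± 0.25 (limma adjusted p = 0.0543) to Psmc6 at -0.03.

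Of the 11 non-ATPases of the cap 10 were below 0, and Psmd3 was called. It stood at 9.12 and 9.27 in wild type mice at 2 weeks, against 10.37 and 10.64 in untreated ones, a difference of -1.30 ± 0.22 (limma adjusted p = 0.0133; -1.43 relative to all genes). At 6 days, when 28 of the 30 core genes were above 0 in wild type, Psmd3 was at 10.00 and 10.13, below both untreated arrays. In knockout mice it stood at 9.76 and 9.93 untreated, 9.72 and 10.31 at 18 hours, 9.76 and 9.51 at 6 days and 9.65 and 9.28 at 2 weeks. In wild type at 18 hours it was at 10.25 and 10.01. Psmd14, the enzyme that removes ubiquitin chains from substrates, was the only non-ATPase above 0, at 0.20 ± 0.17. Psmd3 stayed called in all 12 alternatives that kept the arrays of the comparison, with adjusted p from 0.0039 to 0.0451. It lost the call without either untreated wild type array or without wild type 2 weeks replicate 2.

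Of the 7 assembly chaperones 5 were below 0. Psmg1 was at 8.41 and 8.71 in wild type at 2 weeks, against 9.24 and 9.50 untreated, a difference of -0.81 ± 0.20 (limma adjusted p = 0.0371; -0.93 relative to all genes). In knockout mice it stood at 9.43 and 9.71 untreated, 9.55 and 9.30 at 18 hours, 9.43 and 9.23 at 6 days and 9.19 and 8.69 at 2 weeks, so both knockout arrays at 2 weeks were below the untreated ones as well. In wild type at 18 hours and 6 days it was at 9.41 and 9.63, and 9.23 and 9.20. Psmg1 was called in wild type in 4 of 16 fits without 1 array and in 8 of 12 other alternatives. Of the activators and the inhibitor, Psme4, the nuclear activator, had the most negative difference, -0.50 ± 0.24, and Psme1 the only positive one. Psmc3ip and Psme3ip1, the 2 genes that are no subunits, were at 0.18 and -0.26. Psmb11 was at 0.55 ± 0.25, on values of 3.90 and 4.90 at 2 weeks, against 3.65 and 4.05 untreated. Its replicates differed by more than the groups, and its values outside wild type at 2 weeks lay between 3.65 and 4.05, near the medians of 3.47 to 3.70 of the background probesets.

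**Figure D2:**
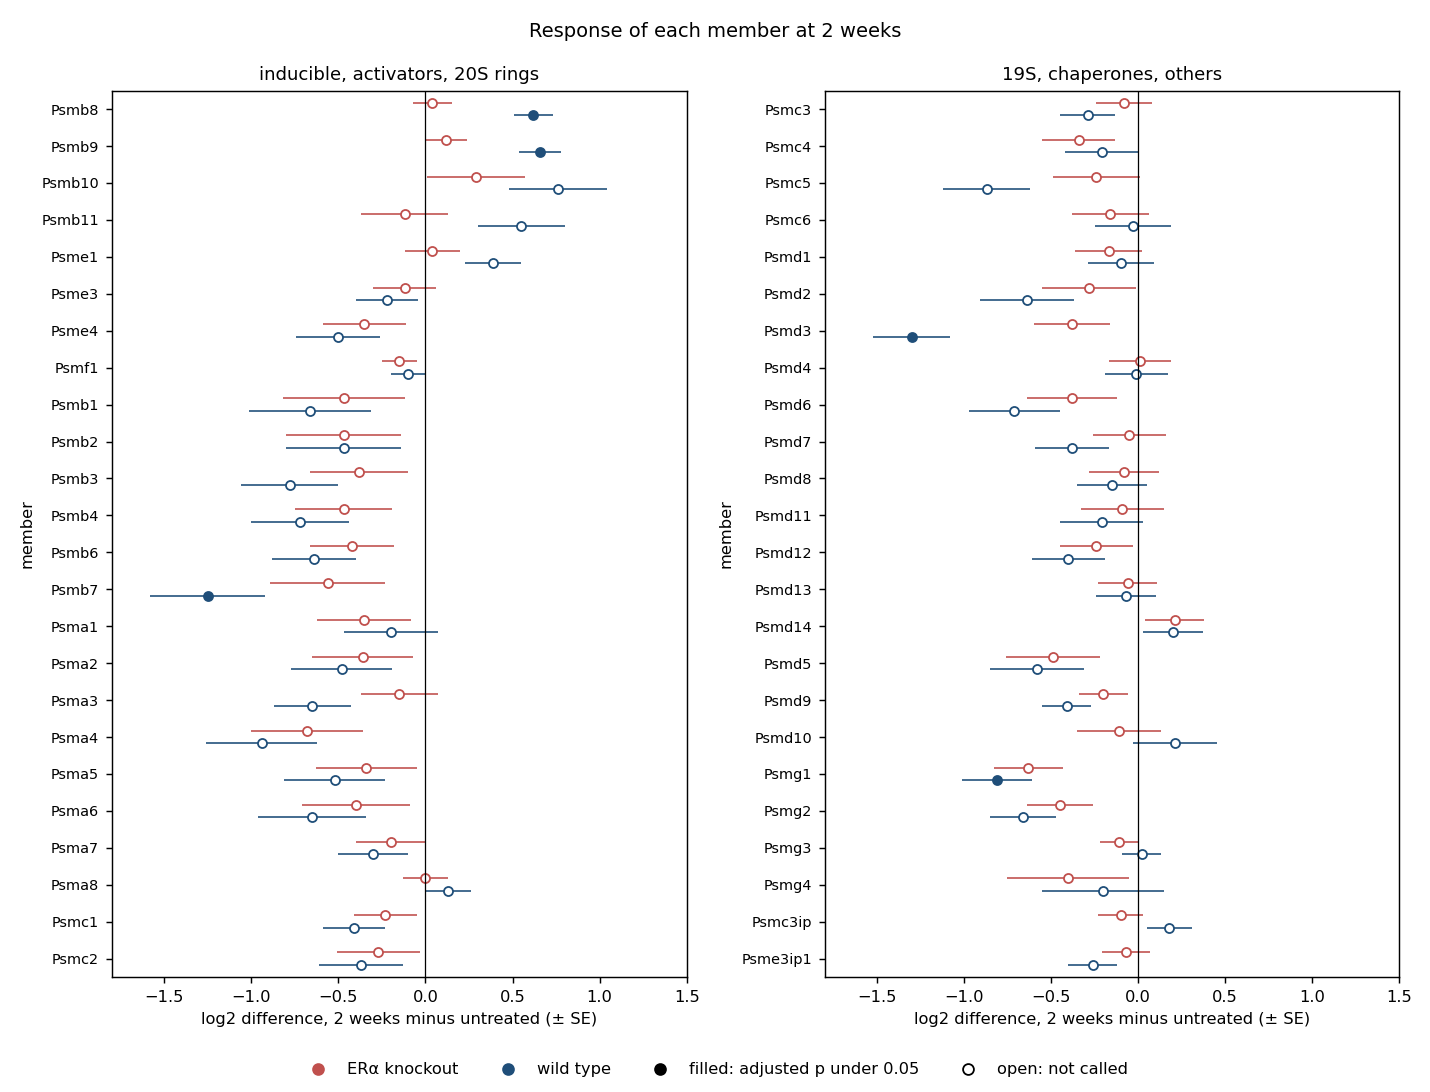
Difference at 2 weeks minus untreated in deposited log2 units with its SE (x axis) for each of the 48 genes (y axis, by role), with knockout above wild type. Filled points passed limma's adjusted p of 0.05: Psmb8 and Psmb9 above 0 and Psmd3, Psmb7 and Psmg1 below 0, all in wild type.

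Each inducible subunit was also set against its counterpart within each array. Psmb10 minus Psmb7, set to the mean of untreated wild type, was 2.16 and 1.85 in wild type at 2 weeks, against 0.32 and -0.32 untreated. Psmb9 minus Psmb6 was 1.45 and 1.14 in wild type at 2 weeks, against 0.15 and -0.15 untreated. In knockout at 2 weeks the first pair was at -0.86 and 1.02, against -0.65 and -0.89 untreated, and the second at -0.12 and 0.66, against -0.12 and -0.43. Replicate 2 of the knockout mice at 2 weeks thus lay in the direction of the wild type arrays and replicate 1 lay with the untreated arrays. A difference between genes of 1 array shows unequal change only, and levels of different probesets were not compared.

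In knockout mice at 2 weeks no gene of the 48 passed the test, against 0.109% of all genes (33, all higher; 2488 had an unadjusted p under 0.05). Psmb8 was at 0.04 ± 0.11, Psmb9 at 0.12 ± 0.12, Psmb10 at 0.29 ± 0.28 and Psme1 at 0.04 ± 0.16. The 30 core genes had a median of -0.28, and 28 were below 0, against 42.9% of all genes. These averages join unlike mice. The core mean was 10.84 and 10.29 in knockout replicates 1 and 2 at 2 weeks, against 10.75 and 10.91 untreated. The mean of the 4 inducible genes was 6.28 and 6.73 in the same replicates, against 6.38 and 6.39 untreated. Without replicate 1 the core median was -0.56, with 29 of 30 genes below 0, and the inducible differences were 0.20 for Psmb8, 0.19 for Psmb9, 0.73 for Psmb10 and 0.27 for Psme1, none of them called. Over all fits without 1 array the core median ran from -0.56 to 0 and the inducible median from -0.14 to 0.24. Limma called some of the 48 genes at 2 weeks without replicate 1, and without it and both 18-hour replicate 2 arrays. Both fits rest on a single knockout mouse at 2 weeks, and no share over all genes was set beside these calls. No weight is put on them.

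**Figure D3:**
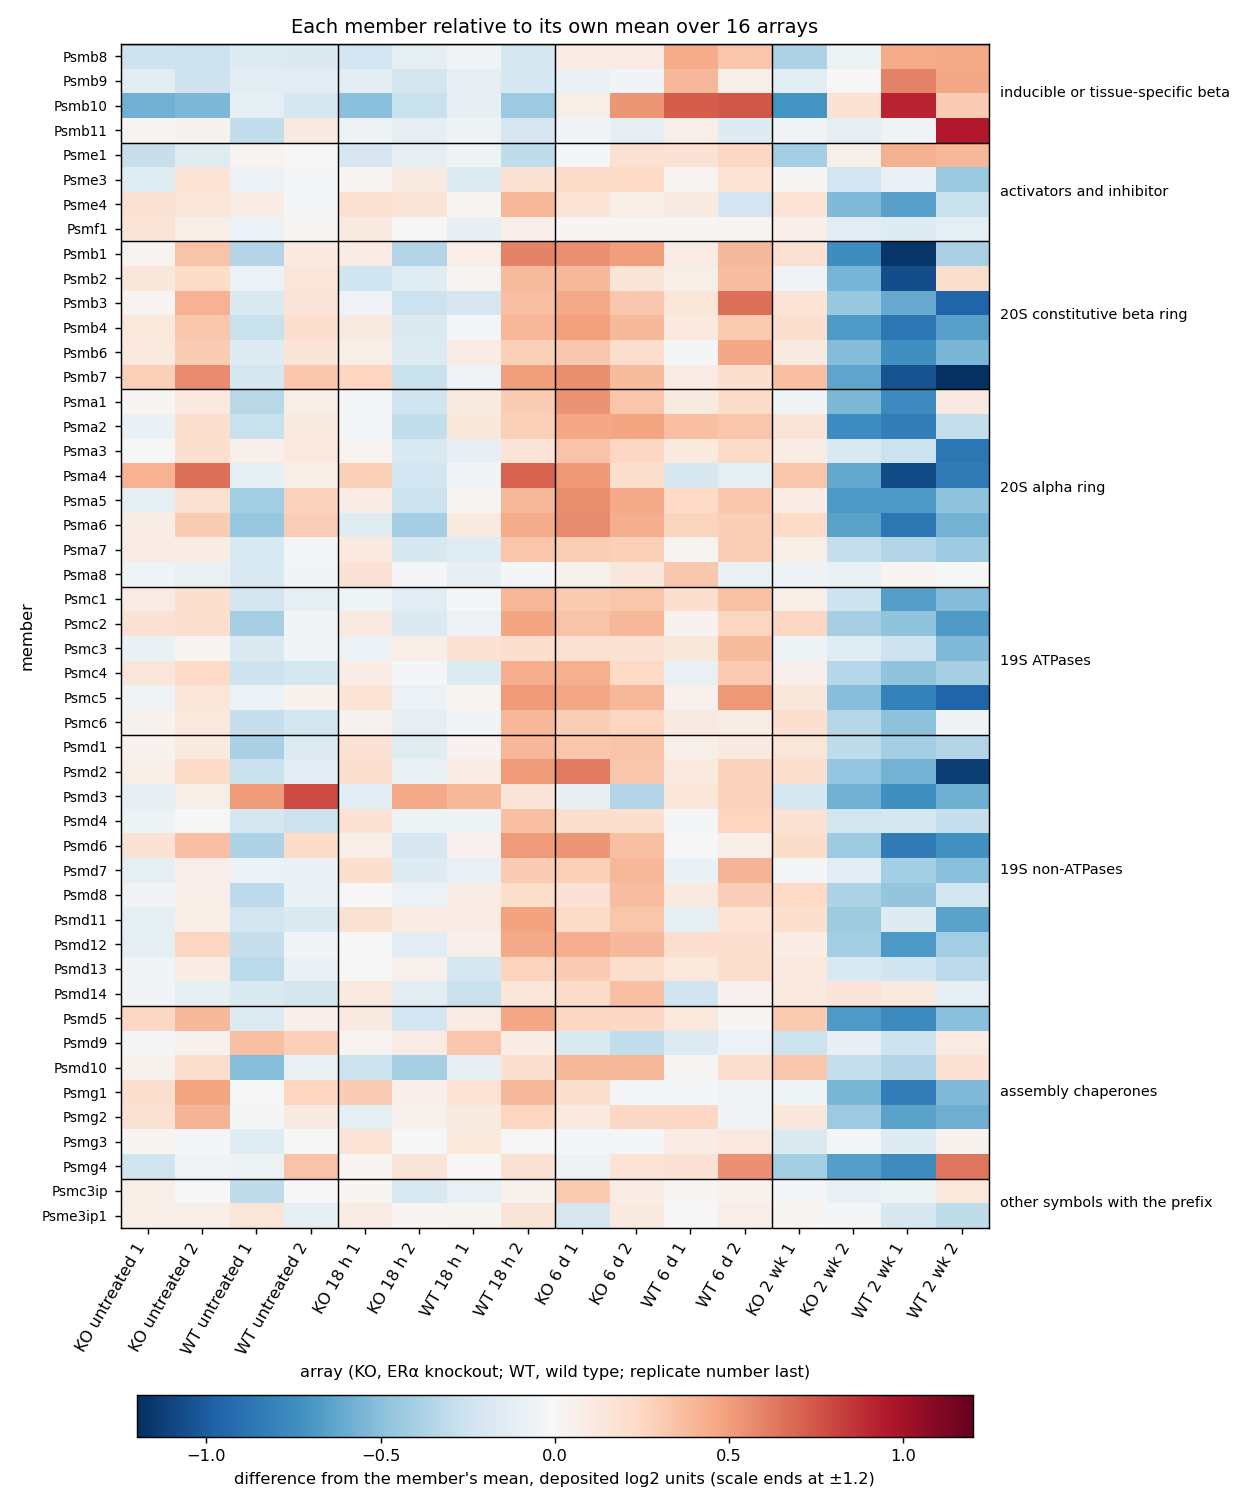
Each of the 48 genes (rows, by role) on each array (columns, knockout left of wild type at each time) as the difference from its own mean over 16 arrays in deposited log2 units, red above and blue below. The wild type arrays at 2 weeks and knockout 2 weeks replicate 2 are blue over most of the core, and knockout 2 weeks replicate 1 is not.

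Between genotypes at 2 weeks the inducible genes lay below 0 and the core above it, and none of the 48 passed, against 0.182% of all genes (11 higher and 44 lower). The 4 inducible genes did not overlap between genotypes. Among all genes 22.8% were lower in knockout with no overlap. Psmb8 was at 5.34 and 5.65 in knockout, against 6.16 and 6.17 in wild type, a difference of -0.67 ± 0.11 (limma adjusted p = 0.0501). Psmb9 was at -0.60 ± 0.12 (adjusted p = 0.0809), Psme1 at -0.58 ± 0.16 (adjusted p = 0.126) and Psmb10 at -0.88 ± 0.28 (adjusted p = 0.159). The 30 core genes were all above 0, with a median of 0.33, against 41.6% of all genes above 0. Psmb7 had the largest core difference, 1.05 ± 0.33 (limma adjusted p = 0.157), at 11.56 and 10.56 in knockout, against 10.15 and 9.86 in wild type.

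These contrasts turn on single arrays. Without knockout 2 weeks replicate 1 the core median between genotypes was 0.10, with 23 of 30 genes above 0, and the inducible median was -0.47, against -0.63 with it. Without that array and both 18-hour replicate 2 arrays both medians were the same. Limma called some of the 48 genes without knockout 2 weeks replicate 2, and some without wild type 2 weeks replicate 1. Each of these fits leaves a single mouse in a compared group. The share called over all genes was not set beside them, so no weight is put on these calls. The test of the difference itself, the knockout response at 2 weeks minus the wild type response, called none of the 48 and none of all genes (0%; 2244 had an unadjusted p under 0.05). Psmb8 was at -0.58 ± 0.16 (adjusted p = 0.61), Psmb9 at -0.54 ± 0.17 (adjusted p = 0.639) and Psmd3 at 0.92 ± 0.30 (adjusted p = 0.639) in that test. The wild type rise is therefore not shown to differ from the knockout response.

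At 6 days after serum the core was not lower, and the inducible genes were already above their controls in both genotypes. In wild type no gene of the 48 passed, and limma called no gene at all (0%; 2106 had an unadjusted p under 0.05). Psmb8 was at 0.56 ± 0.11 (adjusted p = 0.267), Psmb10 at 0.89 ± 0.28 (adjusted p = 0.505), Psmb9 at 0.35 ± 0.12 (adjusted p = 0.549) and Psme1 at 0.19 ± 0.16 (adjusted p = 0.936). The core median was 0.34, with 28 of 30 genes above 0, against 57.7% of all genes. Psmd3 was again apart, at -0.44 ± 0.22.

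In knockout mice at 6 days none of the 48 passed, against 0.0133% of all genes (4 genes; 2250 had an unadjusted p under 0.05). Psmb10 was at 0.86 ± 0.28 (adjusted p = 0.421), Psmb8 at 0.36 ± 0.11 (adjusted p = 0.409), Psme1 at 0.29 ± 0.16 (adjusted p = 0.789) and Psmb9 at 0.13 ± 0.12 (limma adjusted p = 1). The core median was 0.22 and 28 of 30 genes were above 0, against 50.4% of all genes. Between genotypes at 6 days none of the 48 passed, against 0.00664% of all genes, and in the difference of responses at 6 days none of the 48 and 0% of all genes passed. The core mean of the knockout arrays at 6 days, 11.09 and 11.02, and that of the wild type arrays, 10.78 and 10.98, were all above the means of the wild type arrays at 2 weeks, 10.11 and 10.20.

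At 18 hours, with genotypes pooled as 4 arrays against 4 untreated ones, no gene of the 48 and none of all genes passed (0%; 1266 had an unadjusted p under 0.05). Psmb8 was at 0.06 ± 0.08, Psmb9 at -0.01 ± 0.09, Psmb10 at 0.03 ± 0.20 and Psme1 at -0.08 ± 0.11. Without both replicate 2 arrays at 18 hours these were 0.08, 0.04, 0.06 and -0.04, and none passed. The core means at 18 hours were 10.77 and 10.58 in knockout and 10.72 and 11.09 in wild type, and wild type replicate 2, the highest, is one of the arrays that sit with the other genotype.

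Over the mean of the 4 times, knockout against wild type, none of the 48 and no gene at all passed (0%; 3514 had an unadjusted p under 0.05). The 4 inducible genes were all below 0, as were 53.1% of all genes, with Psmb10 at -0.46 ± 0.14 (adjusted p = 0.285), Psmb8 at -0.27 ± 0.06 (adjusted p = 0.218), Psmb9 at -0.24 ± 0.06 (adjusted p = 0.25) and Psme1 at -0.23 ± 0.08 (adjusted p = 0.311). All 4 overlapped between the 8 knockout and the 8 wild type arrays. The core was above 0 in 28 of 30 genes, against 46.9% of all genes. Leaving out both 18-hour replicate 2 arrays and knockout 2 weeks replicate 1, or all 18-hour arrays, called Psmb8 lower in knockout. Leaving out knockout 2 weeks replicate 2 also gave calls, in a fit with a single knockout mouse at 2 weeks. The share called over all genes was not set beside any of these calls, so no weight is put on them. In untreated mice none of the 48 passed, nor at 18 hours between genotypes (0% of all genes in both), and, untreated, Psmd3 had the smallest p, at 9.76 and 9.93 in knockout, against 10.37 and 10.64 in wild type (-0.66 ± 0.22, limma adjusted p = 0.902).

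The proteasome genes were then set beside lists of genes that work with them. In wild type at 2 weeks 6 of 11 measured genes of MHC class I presentation passed, all higher, against 4.81% of all genes higher. They were B2m, the class I light chain (1.82 ± 0.48, adjusted p = 0.0432), H2-D1 (1.30 ± 0.29, adjusted p = 0.0291), H2-K1 (1.06 ± 0.29, adjusted p = 0.0498), Tap1, Tap2 and Erap1. Tap1, the transporter gene that shares its promoter stretch with Psmb9, was at 1.25 ± 0.25 (limma adjusted p = 0.0203). Of the 11 class I genes 8 were above 0, as were 64.6% of all genes. The other 3, Calr, Canx and Pdia3, were below 0 with no overlap (20% of all genes were), and none of them passed. Of 13 interferon gamma response genes 12 were above 0, with Gbp3 at -0.27, and 7 passed, all higher. The largest were Ifngr1, a receptor chain (1.49 ± 0.29), Gbp2 (1.32 ± 0.25) and Iigp1 (1.25 ± 0.27), both GTPases, and the chemokine Cxcl10 (1.15 ± 0.16). Without both 18-hour replicate 2 arrays 1 of the 11 and 4 of the 13 passed, and with arrays centred on their median 2 and 6. Leaving out 1 array gave 0 to 6 of the class I genes and 0 to 9 of the interferon genes. All or nearly all of these calls were lost without either untreated wild type array, and most class I calls without wild type 2 weeks replicate 2. Fewer genes were called over all genes in these fits too. Without either untreated knockout array 3 of the class I genes passed.

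Irf1, a transcription factor that acts on the inducible subunit genes, was at 1.10 ± 0.12 in wild type at 2 weeks (limma adjusted p = 0.00596). In knockout at 2 weeks neither list had a gene that passed, and the medians were 0.11 for class I presentation and 0.09 for the interferon response, against 0.59 and 1.08 in wild type. Without knockout 2 weeks replicate 1 the knockout medians were 0.27 and 0.23, in a fit with a single knockout mouse at 2 weeks. Knockout minus wild type at 2 weeks, 2 interferon response genes passed, Irf1 (-1.11 ± 0.12, adjusted p = 0.0231) and Cxcl10 (-1.05 ± 0.16, adjusted p = 0.0421). Tap1 was at -1.46 ± 0.25 there and did not pass (limma adjusted p = 0.0501). The call of Irf1 held in 7 of 16 fits without 1 array, and was lost with only the compared groups in the fit and in the 13 arrays without the 3 doubtful ones. That of Cxcl10 held in 2 of 16 and in 4 of 11 other alternatives.

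**Figure D4:**
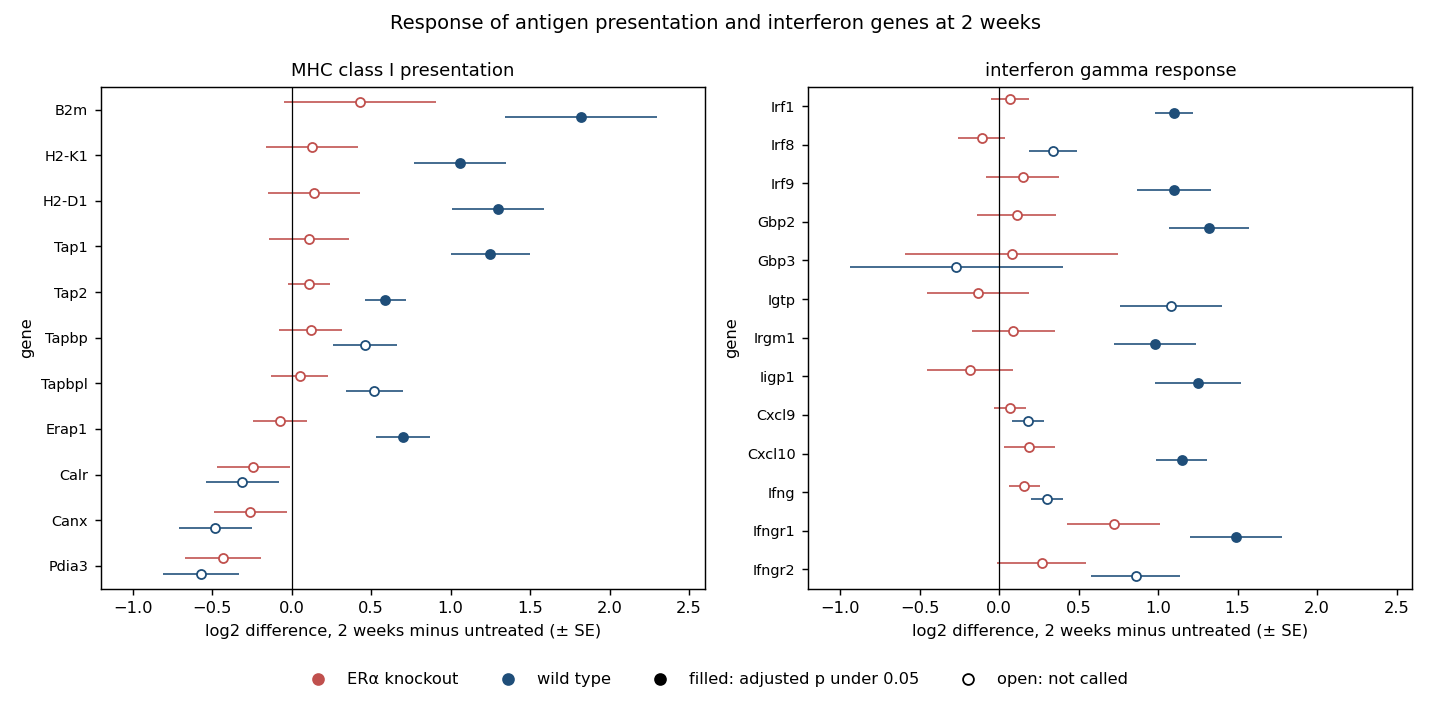
Difference at 2 weeks minus untreated in deposited log2 units with its SE (x axis) for genes of MHC class I presentation (left) and of the interferon gamma response (right), with knockout above wild type. Filled points passed limma's adjusted p of 0.05: 6 and 7 genes in wild type and none in knockout.

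Lists closer to the constitutive particle did not pass. Of 7 proteasome-associated factors none was called in wild type at 2 weeks, and 5 were below 0. Nfe2l1, the factor that drives constitutive subunit genes when the proteasome is impaired, was at -0.50 ± 0.30 and Pomp, a chaperone of barrel assembly, at -0.41 ± 0.29. Of 6 ubiquitin and shuttle genes none was called. Uchl1, a deubiquitinase, was at 1.17 ± 0.41 (limma adjusted p = 0.093) and Uchl3, its paralogue, at -0.55 ± 0.34.

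Leukocyte and proximal tubule markers were called along with the proteasome genes, and glomerular markers lay above 0 without being called. At 2 weeks in wild type 6 of 10 macrophage and monocyte markers passed, all higher (4.81% of all genes were called higher and 3.23% lower). The mean of the 10 was 8.00 and 8.18, against 7.18 and 6.88 untreated. Csf1r went the other way, at 8.53 and 8.37, against 9.75 and 8.84 untreated, and the other 9 were above 0. The 3 markers of all leukocytes passed too, with means of 6.78 and 7.05, against 6.04 and 6.05. T and NK cell markers had means of 5.04 and 5.29, against 4.90 and 4.90, and none of 7 passed. Proximal tubule markers were at 13.09 and 14.18, against 15.53 and 16.09, and 4 of 7 passed, all lower. The tubule injury markers were at 11 and 9.43, against 5.47 and 5.38, with Havcr1 called. Without both 18-hour replicate 2 arrays the macrophage count was again 6 and that of the tubule markers 0. The macrophage and leukocyte calls were lost without either untreated wild type array, and the leukocyte calls without wild type 2 weeks replicate 2. Fewer genes were called over all genes in these fits too. Podocyte markers were at 10.75 and 11.28, against 10.75 and 9.80, and 5 of 5 had a difference above 0 (median 0.83), against 64.6% of all genes. Endothelial markers had a median of 1.30 with 6 of 6 above 0, and mesangial markers a median of 1.13 with 3 of 3 above 0, and none of these glomerular markers passed. In such bulk extracts, fewer cells of a type and less RNA per cell cannot be told apart.

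In knockout at 2 weeks the macrophage mean was 6.92 and 7.48 in replicates 1 and 2, against 7.03 and 6.92 untreated. The proximal tubule mean was 15.62 and 13.81, against 15.87 and 16.00. Replicate 2, with the lower core mean of 10.29 and the higher inducible mean of 6.73, thus also had the lower tubule mean and the higher macrophage mean. The glomerular markers differed between these mice too, with podocyte means of 9.21 and 11.19, against 9.25 and 9.87 untreated, endothelial means of 9.43 and 11.61, against 10.07 and 10.55, and mesangial means of 7.72 and 9.48, against 8.30 and 8.59. Knockout minus wild type at 2 weeks, all podocyte, endothelial and mesangial markers were below 0 (medians -0.94, -1.35 and -1.76) and none passed. Without knockout replicate 1 the medians were 0.18, -0.22 and -0.73. In the same contrast 9 of 10 macrophage and monocyte markers were below 0 (median -0.74), against 58.4% of all genes. Of these markers 3 passed, as did 1 of 4 dendritic cell markers, all lower, against 0.146% of all genes lower. These calls include knockout replicate 1, which stood apart from its partner, and are not given here without it. The macrophage mean of knockout replicate 2, 7.48, was below those of both wild type arrays at 2 weeks, 8.00 and 8.18. At 6 days the core mean was above the untreated mean in both genotypes while the proximal tubule mean was 15.76 and 15.05 in knockout and 15.49 and 15.20 in wild type. The macrophage mean at 6 days was 7.19 and 7.44 in knockout and 7.69 and 7.68 in wild type. The part of these cell types in the differences of the inducible and the core genes was not tested.

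**Figure D5:**
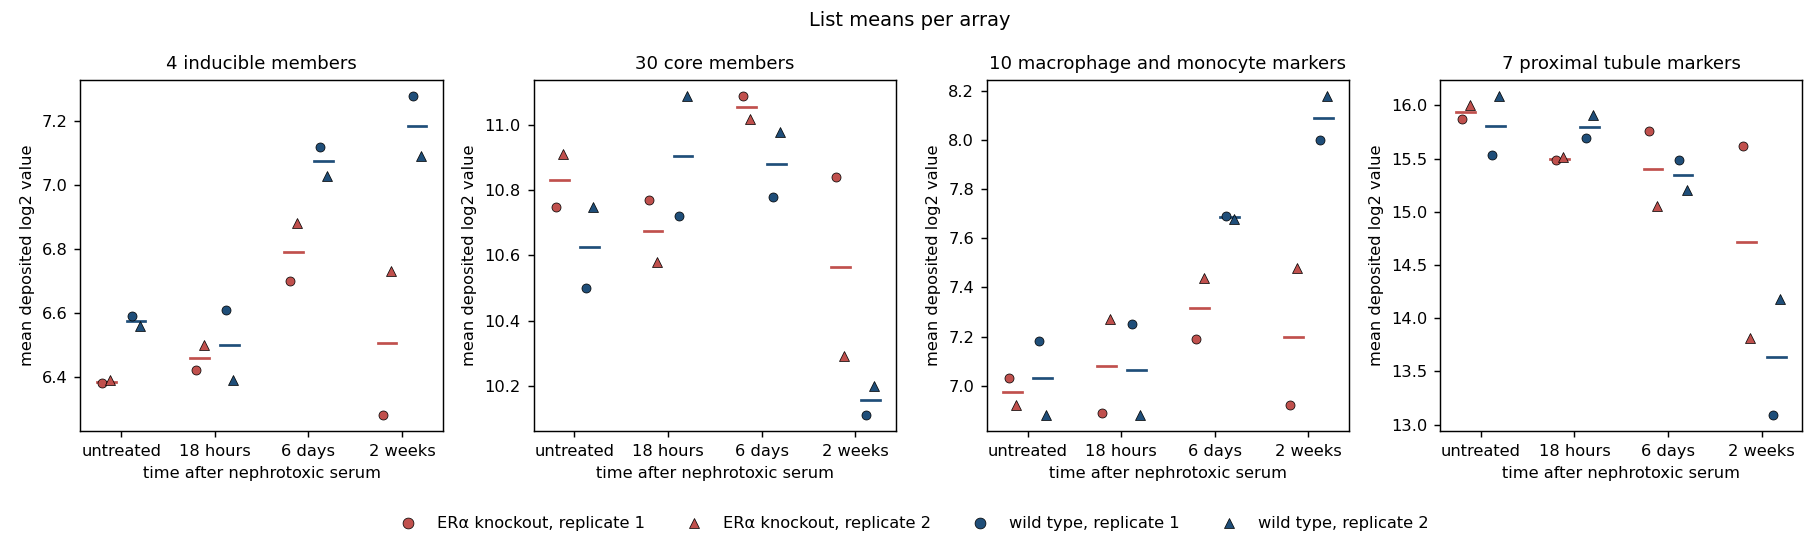
Mean deposited log2 value (y axis) of the 4 inducible genes, the 30 core genes, 10 macrophage and monocyte markers and 7 proximal tubule markers by time after serum (x axis), with knockout left of wild type. Each point is 1 mouse and each bar the mean of 2; in wild type at 2 weeks the inducible and macrophage means are at their highest and the core and tubule means at their lowest of all groups.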

How the data were processed

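Glomerular RNA of 16 mice, 10 ng each, was labelled with the Affymetrix WT Pico kit, per the labels' protocols. The deposited table holds log2 values of 72688 probesets from 2.22 to 19.93, per the values themselves. Per the submitters' processing notes, the authors worked with Affymetrix Expression Console and with Transcriptome Analysis Console, with versions, summarisation and build not given in the sources used here. Because 152 genes average above 16, the log2 scale holds a transformation that is not stated. Nothing was renormalized. Of 30604 probesets with 1 symbol, the brightest per gene was kept (30142 genes). All 8 groups were fitted in limma 3.58.1 (R 4.3.3) with an intensity trend and 8 residual degrees of freedom, for 12 contrasts. The procedure was tested on simulated data with independent errors, which does not cover doubtful arrays such as those named above. Alternatives were other scalings, filters, variance settings and left-out arrays. The genes, lists and alternatives were chosen with earlier results of these data known. Values on every array were given for the inducible genes, the measured counterparts and the members called over all arrays. For the rest, extremes of a role or list were named. Nothing says whether mice shared a batch. Sequences are from RefSeq.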

Additional observations from a re-analysis of the deposited data

How the results depend on the processing

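For wild type at 2 weeks 5 of the 48 genes were called, and 2424 of all genes. The count was 1 with quantile normalization added (1214 of all genes) and 1 with only the compared groups in the fit (619 of all genes), Psmd3 each time. It was 14 with arrays centred on their median (3291 of all genes). It was 3 over 14 arrays (without both 18-hour replicate 2 arrays) and over 12 arrays (without any 18-hour array), and 11 over 13 arrays (also without knockout 2 weeks replicate 1). Leaving out 1 array gave 0 to 12. It was lowest without untreated wild type replicate 1 or 2 or wild type 2 weeks replicate 2. It was highest without either knockout 2 weeks array, which enter only the spread. Over all genes, too, fewer were called than in the main fit in the former fits and more in the latter. The count of the 48 thus moved with the calls over all genes in these fits. Leaving out dim genes also gave 5, but Psmb8 and Psmb9 are then not tested.

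For knockout at 2 weeks (0 as reported) the count was 2 over 13 arrays, and 0 to 3 with 1 array left out. For knockout minus wild type over the 4 times (0) it was 1 over 13 and 1 over 12 arrays, and 0 to 5 with 1 array left out. For knockout minus wild type at 2 weeks (0) it was 1 with probesets averaged, where Psmb8 had an adjusted p of 0.05 after rounding, and 0 to 15 with 1 array left out. The difference of responses at 2 weeks gave 0 to 1. The other 7 comparisons gave 0 under every alternative run. Fits without a 2-week array leave a single mouse in a group. No share over all genes is set beside the calls of this paragraph, so no weight is put on them. No difference of the named genes that was called changed sign in these alternatives.

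Replicate numbers are shared between groups, and their deviations correlated from -0.68 to 0.59 over 28 pairs of groups, above 0.1 in 11. They were not taken to pair the mice. With the replicate block, wild type at 2 weeks had 4 calls, without Psmb7. Psmb11 lies near the background probesets, and the number of arrays limits the precision.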
